A study of Mus musculus with 29 samples.

Results

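The tissue left in mice that were not cured by dual ICI was compared with the tissue of mice given a single antibody. The comparison covers all genes of 2 RNA-seq libraries from the uncured dual ICI mice, replicates 1 and 5, and 8 monotherapy libraries, anti-PD1 replicates 1 to 4 and anti-CTLA4 replicates 1 to 4. These are 10 of the 19 libraries of week 5 and of the 29 in the series. The model was YTN16, a mouse gastric cancer cell line, implanted IP on day 0 in female C57BL/6J mice of 5 to 6 weeks of age. Anti-PD1 (10 mg/kg), anti-CTLA4 (5 mg/kg) or both antibodies were injected IP 5 times, on day 5, day 8, day 12, day 21 and day 28, and tissue was taken on day 35. The labels call the material tumor tissue, and the methods describe it as stripped peritoneum with or without nodules, so that each library is a mixture of tumor, immune cells and body wall. Untreated mice implanted with the same cells (5 libraries at week 5) are given as a background level. Each library came from 1 mouse, and with 2 mice in the dual ICI arm the error of that arm rests on a single difference between mice.

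The libraries were chosen by measured outcomes. The dual ICI arm was selected on the uncured state of mice 1 and 5, taking the library number as the mouse number of the study, since the labels do not hold that state. The study counted a cured mouse in the anti-PD1 arm, and the labels do not say which library it gave. In the anti-CTLA4 arm the study excluded a mouse that had died before autopsy, and the series holds 4 libraries of that arm. Anti-PD1 replicate 5 was left out by its gastric epithelium content: a list of epithelial genes such as Epcam, Krt8 and Cldn18 took 0.00715% of its counts. The lowest of the 10 libraries kept, anti-CTLA4 replicate 2, held 0.244%, and the highest, dual ICI replicate 5, held 0.656%. The 3 cured dual ICI libraries, which were left out as well, held 0.0034% to 0.00993%, and the untreated libraries 0.116% to 0.483%. Because epithelium content took part in the choice, it is described here and not tested.

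PD-1 and CTLA-4 are receptors that restrain T cells, and antibodies that block them release T cell activation. Activated T cells and NK cells secrete interferon gamma, which signals through the kinases JAK1 and JAK2. This induces the transcription factor IRF1 and switches on guanylate-binding proteins, immunity-related GTPases, the immunoproteasome, MHC class I and class II, and the chemokines CXCL9 and CXCL10 that attract further T cells. The peritoneal wall itself is made of mesothelium, connective tissue, fat and skeletal muscle.

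In uncured dual ICI tissue, most T cell, interferon-induced and antigen presentation genes were at a higher level than under monotherapy, by medians of 0.49 to 0.91 on the log2 scale. Most muscle, mesothelium and fat cell genes were at a lower level, by medians of -0.76 to -0.91. With the muscle score of each library as a covariate the fat median was 0.17. The muscle median was then 0.02, which the fit itself forces, since the score is the mean log2 CPM of the same muscle list. The IL6, JAK and STAT3 list, TGF-beta genes and fibroblast genes had medians near that of all genes. At an unadjusted p under 0.05, 6 of 28 in the IL6, JAK and STAT3 list were higher (6.00% of all genes), and 0 of the TGF-beta and fibroblast genes. The neutrophil median was 0.18, above the upper quartile of all genes (0.17), with 0 of 13 at an unadjusted p under 0.05. Of 16224 genes tested, a single gene, Nos1, passed edgeR's quasi-likelihood test at an adjusted p (Benjamini-Hochberg) under 0.05, a share of 0.00616%. It fell, and the others are differences in level that did not pass.

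Nos1 encodes the neuronal nitric oxide synthase, which skeletal muscle fibres carry at their membrane. The gene lies on chromosome 5 at 117781032 to 117958840 (GRCm38, plus strand) and overlaps Gm26995, with which it may share reads. Its level was 15.6 and 15.3 CPM in the uncured dual ICI libraries (CPM are counts relative to the TMM-scaled total of the library). The anti-PD1 libraries held 37.2, 44.3, 33.6 and 44.6 CPM, and the anti-CTLA4 libraries 33.6, 42.6, 38.1 and 33.2 CPM. Both dual ICI libraries lay below all 8 monotherapy libraries and also below the 5 untreated ones, which ran from 17.3 to 114 CPM. Nos1 fell by 1.31 ± 0.145 on the log2 scale (± SE), a fold of 2.49, with an adjusted p of 0.0288 in edgeR's quasi-likelihood test and 5.57e-13 in DESeq2. The edgeR call was lost without anti-PD1 replicate 1 (adjusted p = 0.0891), 2 (0.0512) or 4 (0.0535), without anti-CTLA4 replicate 3 (0.0801), without dual ICI replicate 1 (0.207) or 5 (0.782), and with anti-PD1 replicate 5 kept in (0.704). It was also lost with all 19 week 5 libraries in the fit (0.676), against anti-CTLA4 alone (0.436) and with the replicate number as a block (0.308). Its log2 fold change stayed negative in each of these fits.

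Behind Nos1 the adjusted p-values were tightly packed. In edgeR 47 genes had an adjusted p under 0.06, starting at 0.0525, and 164 had one under 0.1, of which 86 were higher and 78 lower in dual ICI. At an unadjusted p under 0.05 there were 2092 genes, 974 higher (6.00% of those tested) and 1118 lower (6.89%). With a fold over 2 in addition there were 337, of which 140 were higher and 197 lower. The dual ICI libraries lay above all 8 monotherapy libraries for 915 genes (5.64%) and below all 8 for 1095 genes (6.75%). DESeq2, the tool of the study, called 207 genes higher (1.33% of 15602) and 267 lower (1.71%). These 474 genes include Nos1. They became 37 without dual ICI replicate 5, 176 without dual ICI replicate 1 and 751 without anti-CTLA4 replicate 1. The edgeR count became 72 without anti-CTLA4 replicate 2, of which 68 were also called by DESeq2, and 11, 5 and 3 without anti-CTLA4 replicate 4, anti-PD1 replicate 3 and dual ICI replicate 1. Apart from Nos1, the genes below are therefore given as levels and differences that did not pass the edgeR threshold in all 10 libraries, and the counts of each list are read beside the shares of all genes.

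**Figure D1:**
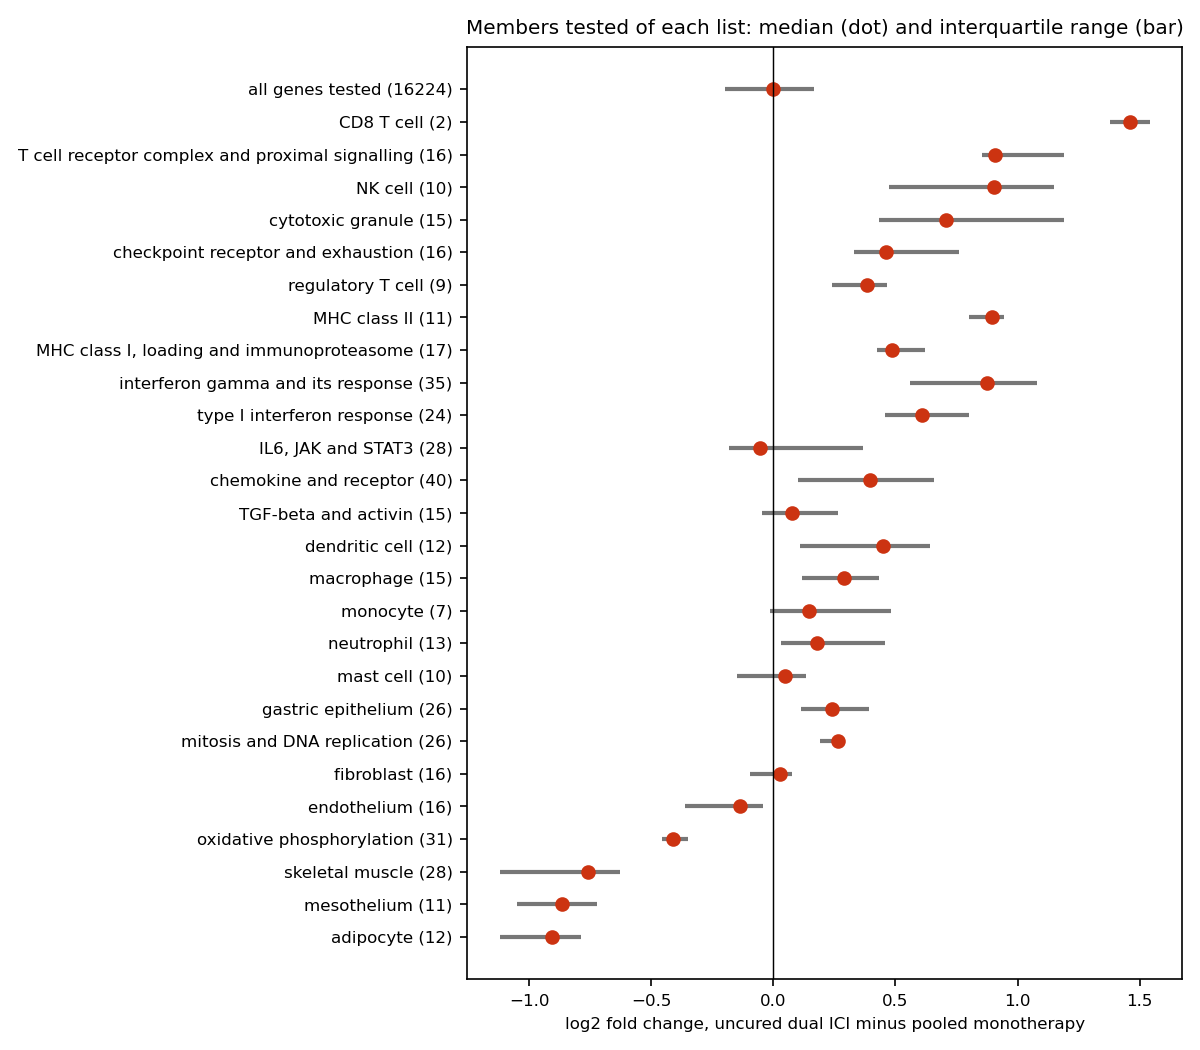
Median log2 fold change (dot) and interquartile range (bar) of the tested members of each gene list, uncured dual ICI minus pooled monotherapy, with the number of members tested in brackets. T cell, NK cell, MHC and interferon lists lie to the right of all genes (median -0.00188), the IL6, TGF-beta and fibroblast lists lie near it, and the muscle, mesothelium and adipocyte lists lie to the left.

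T cell genes stood on the higher side. Of 20 genes of the T cell receptor complex and its proximal signalling, 16 could be tested, and all of these were higher in dual ICI, with a median log2 fold change of 0.91. At an unadjusted p under 0.05, 14 of the 16 were higher (6.00% of all genes), and for 14 the dual ICI libraries lay above all monotherapy libraries (5.64%). DESeq2 called 8 of them (1.33% of all genes on the higher side) and edgeR 0. The list's median stayed between 0.78 and 1.35 in the 34 alternative fits.

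Cd3g, a chain of the CD3 signalling complex on chromosome 9 (44969572 to 44980431, minus strand), was measured at 6.47 and 6.37 CPM in dual ICI. The anti-PD1 libraries held 2.23, 2.58, 3.08 and 1.64 CPM and the anti-CTLA4 libraries 2.07, 3.17, 2.57 and 2.4 CPM. The arms did not overlap, and the log2 fold change was 1.38 ± 0.212 (edgeR adjusted p = 0.0595, DESeq2 1.09e-06). Cd3e, another chain of the complex, was at 6.12 and 5.65 CPM against 2.08 to 3.8 CPM. Cd247, which encodes the zeta chain, was the lowest of the list at 0.16 ± 0.306 and overlapped between the arms (3.13 and 2.45 against 1.46 to 3.89 CPM). Ubash3a, a phosphatase that damps T cell receptor signalling, was the highest at 1.63 ± 0.501.

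Both T cell lineages were at a higher level. Cd8a, the CD8 alpha chain (chromosome 6, 71373427 to 71379173), was at 9.6 and 10.3 CPM in dual ICI. It was at 2.48, 5.16, 6.67 and 3.1 CPM under anti-PD1 and at 4.15, 2.58, 4.71 and 3.28 CPM under anti-CTLA4, and at 2.34 to 5.38 CPM in untreated mice. The log2 fold change was 1.31 ± 0.308 (edgeR adjusted p = 0.108, DESeq2 0.00774). Cd8b1, the beta chain, was at 3.42 and 4.53 CPM against 0.767 to 2.59 CPM. Cd4, the helper T cell coreceptor, was at 9.32 and 10.2 CPM in dual ICI against 1.75 to 5.2 CPM under monotherapy (1.34 ± 0.283, edgeR adjusted p = 0.0914, DESeq2 0.00219). Neither Cd8a nor Cd4 overlapped between the arms. In these bulk libraries more T cells and more RNA per T cell cannot be told apart.

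Cxcr6, the receptor for CXCL16 on activated and tissue-resident T cells, was the gene with the smallest p among the higher genes. It lies on chromosome 9 at 123806475 to 123811760 and overlaps Fyco1. Its level was 6.62 and 6.21 CPM in dual ICI, against 2.48, 2.33, 3.21 and 2.33 CPM under anti-PD1 and 1.77, 2.03, 2.35 and 1.92 CPM under anti-CTLA4. All monotherapy libraries and all untreated ones (1.53 to 3.26 CPM) lay below both dual ICI libraries. The log2 fold change was 1.47 ± 0.197 (edgeR adjusted p = 0.0595, DESeq2 9.25e-09). Cxcr6 passed the edgeR threshold in 6 of 23 alternative edgeR fits and not in the rest. Among the 6 was the fit with anti-PD1 and anti-CTLA4 as separate groups (adjusted p = 0.0485). Ly6c2, a surface protein of memory CD8 T cells and monocytes with close paralogs, was at 11.3 and 10.9 CPM against 2.56 to 5.67 CPM (1.38 ± 0.23).

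Genes of the killing machinery were less uniform. Of 16 cytotoxic granule genes 15 were tested, and 14 of these were higher with a median log2 fold change of 0.71. At an unadjusted p under 0.05, 7 were higher (6.00% of all genes) and 1 lower (6.89%). DESeq2 called 3 higher (1.33%) and 1 lower (1.71%). Ctsw, a protease of cytotoxic lymphocytes, had the smallest p of the list, at 7.63 and 7.49 CPM against 2.45 to 4.6 CPM (1.2 ± 0.197, edgeR adjusted p = 0.0595). Prf1, which encodes the pore-forming perforin, was at 1.83 and 2.95 CPM against 0.364 to 1.23 CPM (1.54 ± 0.356). Gzmb, the granzyme of activated killer cells, was at 1.37 and 1.58 CPM against 0.803 to 1.17 CPM (0.61 ± 0.222). Gzmk, a granzyme of memory T cells, was the highest of the list at 1.67 ± 0.666, at the low levels of 0.863 and 0.901 CPM against 0.0364 to 0.76 CPM. Gzmm, another granzyme, went the other way, at 2.55 and 1.4 CPM against 2.71 to 5.03 CPM. NK cell genes were higher for 10 of 10 tested of 13, with a median of 0.9, and 6 of the 10 had an unadjusted p under 0.05 (6.00% of all genes). Their defining receptor gene Ncr1 was at 0.54 and 0.497 CPM and lay inside the monotherapy range of 0.219 to 0.657 CPM. The NK cell list shares Eomes with the checkpoint and exhaustion list, so these lists are not separate measures.

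The targets of both antibodies were measured as well. Pdcd1, which encodes PD-1, was at 6.47 and 9.78 CPM in dual ICI, above all 8 monotherapy libraries (2.81 to 5.81 CPM), with a log2 fold change of 1.03 ± 0.258 (edgeR adjusted p = 0.129, DESeq2 0.0138). Ctla4 was at 2.81 and 2.48 CPM, inside the monotherapy range of 0.731 to 4.17 CPM, with 0.39 ± 0.503. Over the 16 tested of 18 checkpoint and exhaustion genes the median was 0.46, with 14 higher. On the higher side 7 had an unadjusted p under 0.05 (6.00% of all genes). Eomes, a transcription factor of effector and exhausted CD8 T cells, was at 3.38 and 5.4 CPM against 1.89 to 3.03 CPM. Tox, a transcription factor of exhaustion, was at 9.14 CPM in dual ICI replicate 1 but at 5.37 CPM in replicate 5, within the monotherapy range of 4.94 to 5.78 CPM. Lag3, an inhibitory receptor that binds MHC class II, was at 7.19 and 8.04 CPM against 4.52 to 6.52 CPM. Havcr2 and Tigit, a pair of further inhibitory receptors, showed 0.54 ± 0.294 and 0.74 ± 0.337. Havcr2 overlapped at the upper end of the monotherapies (6.22 and 7.18 against 2.85 to 6.5 CPM), as did Tigit (2.45 and 3.6 against 1.13 to 3.14 CPM). Foxp3, the master regulator of regulatory T cells, was at 5.86 and 5.96 CPM against 1.72 to 5.67 CPM (0.72 ± 0.319). The 9 genes of the regulatory T cell list had a median of 0.39, with 2 higher at an unadjusted p under 0.05 (6.00% of all genes). That list also holds Capn3 and Cd4, the helper T cell coreceptor, and its members ran from -0.66 to 1.34. Cd274, which encodes the ligand PD-L1, was at 18.5 and 19.2 CPM against 7.93 to 13.8 CPM (0.71 ± 0.172, DESeq2 adjusted p = 0.0126). The 11 checkpoint ligand genes tested were all higher, with a median of 0.38, and the 12 costimulatory receptor genes all higher, with a median of 0.64.

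**Figure D2:**
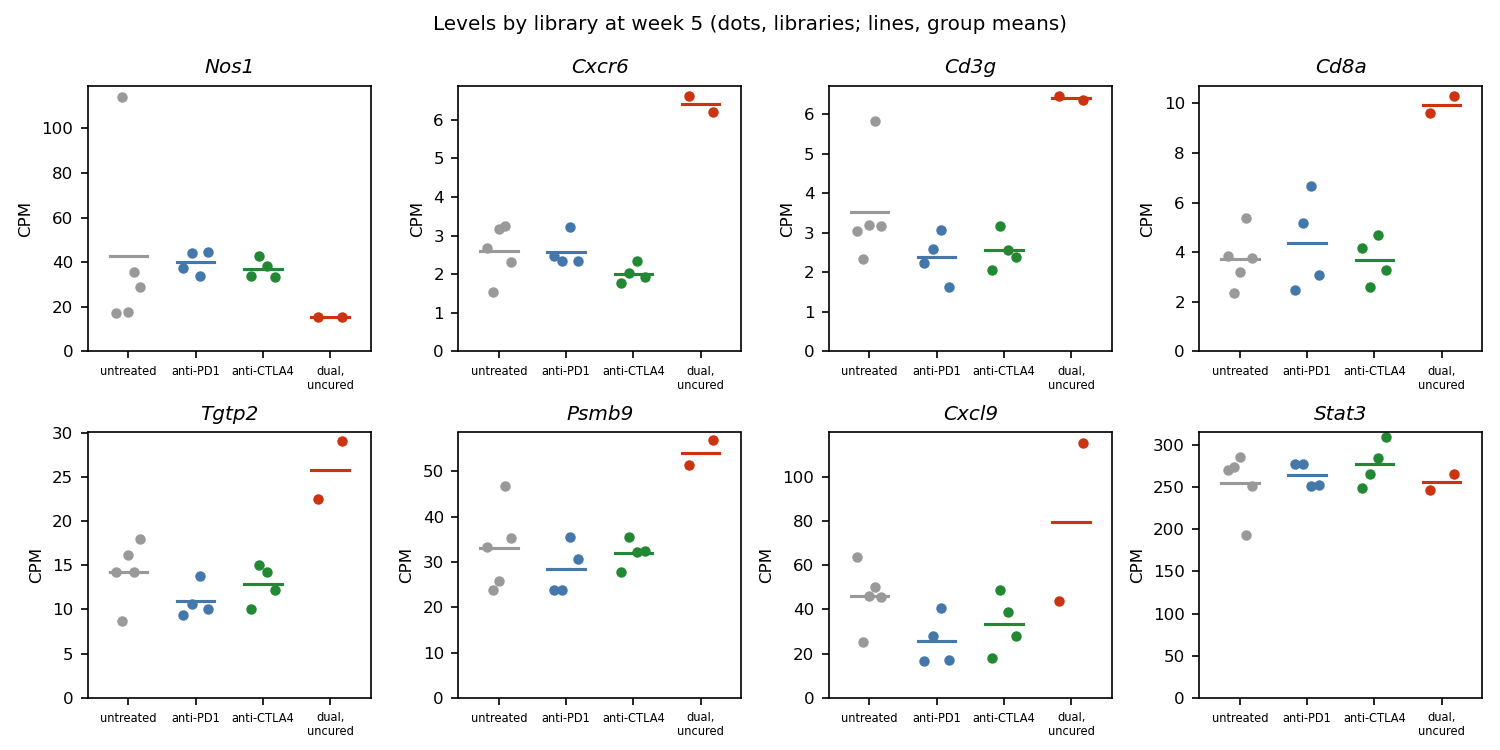
Levels of 8 genes in CPM at week 5, 1 dot per library and a line at the mean of each group (5 untreated, 4 anti-PD1, 4 anti-CTLA4, 2 uncured dual ICI). Nos1 is at 15.6 and 15.3 CPM in dual ICI, below every other library, Cxcr6, Cd3g, Cd8a, Tgtp2 and Psmb9 are above every other library, and Cxcl9 and Stat3 overlap.

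The interferon-induced genes were higher across most of their lists, although the message for interferon gamma itself was barely detected. Ifng was at 0.324 and 0.404 CPM in dual ICI and at 0.0697 to 0.346 CPM under monotherapy, and the arms overlapped. Of the 35 genes of interferon gamma and its response, all tested, 34 were higher, with a median log2 fold change of 0.87. At an unadjusted p under 0.05, 28 were higher (6.00% of all genes) and 0 lower, and DESeq2 called 21 (1.33%). Of 24 type I interferon response genes, 23 were higher with a median of 0.61, 19 had an unadjusted p under 0.05, and DESeq2 called 17. The medians stayed above 0 in all 34 alternative fits, from 0.4 to 1.04 for interferon gamma and from 0.49 to 0.71 for type I interferon.

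Tgtp2, a GTPase that attacks pathogen vacuoles, was at 22.5 and 29 CPM in dual ICI. It was at 9.35, 10.6, 13.8 and 10 CPM under anti-PD1 and at 10.1, 15, 14.2 and 12.2 CPM under anti-CTLA4, so that the arms did not overlap. Untreated mice held 8.75 to 18 CPM. The log2 fold change was 1.11 ± 0.18 (edgeR adjusted p = 0.0595, DESeq2 4.48e-05), but reads can be shared with its near-identical copy Tgtp1. Irf1, a transcription factor that interferon induces, was at 111 and 130 CPM against 64 to 87.4 CPM (0.66 ± 0.126). Igtp, a GTPase of the same family, was at 57.7 and 73.2 CPM against 24.8 to 39.6 CPM (1.02 ± 0.166) and overlaps Irgm2. Among type I interferon genes, Usp18, which damps interferon receptor signalling, was at 11.1 and 14.1 CPM against 5.66 to 8.3 CPM (0.99 ± 0.155). Mx1, an antiviral GTPase, was at 12.9 and 15.4 CPM against 4.11 to 7.57 CPM (1.32 ± 0.23), and Isg15, a ubiquitin-like protein, at 10.1 and 11.5 CPM against 5.23 to 7.16 CPM. Irf1 and Isg15 were named after their values were seen, as were B2m, H2-K1, Cd74, Ccl5, Des and Acta1.

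Dual ICI replicates 1 and 5 differed in the interferon-induced chemokines. Cxcl9 was at 44 CPM in replicate 1 and at 115 CPM in replicate 5, against 16.9, 27.8, 40.4 and 17.3 CPM under anti-PD1 and 18, 48.6, 38.9 and 28 CPM under anti-CTLA4. Replicate 1 lay below anti-CTLA4 replicate 2. Cxcl10 was at 15.6 and 33.5 CPM against 7.82 to 16.2 CPM, again with replicate 1 inside the range. Ido1, which breaks down tryptophan, was at 2.73 CPM in replicate 1, within 0.95 to 2.87 CPM under monotherapy, and at 19.8 CPM in replicate 5. Ccl5, a chemokine made by T and NK cells, was alike in both, at 12.7 and 13.2 CPM against 3.68 to 7.67 CPM (1.24 ± 0.218). Of 41 chemokine and receptor genes 40 were tested, with a median of 0.4 and 10 at an unadjusted p under 0.05 on the higher side (6.00% of all genes). Il12a, a subunit of IL-12, was the lowest of the interferon gamma list at 0.647 and 1.3 CPM, within 0.234 to 4.52 CPM.

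Antigen presentation genes were at a higher level for both classes. Of 20 genes of MHC class I, its peptide loading and the immunoproteasome, 17 were tested. All 17 were higher, from 0.26 for Erap1, the peptidase that trims peptides in the endoplasmic reticulum, to 1.05 for Nlrc5, the transactivator of MHC class I, with a median of 0.49. All 17 had an unadjusted p under 0.05 (6.00% of all genes on the higher side), and DESeq2 called 14 (1.33%). Psmb9, a catalytic subunit of the immunoproteasome on chromosome 17 (34181987 to 34187764) that overlaps Tap1, was at 51.3 and 56.9 CPM. The anti-PD1 libraries held 23.8, 23.7, 35.4 and 30.6 CPM and the anti-CTLA4 libraries 27.8, 35.5, 32.3 and 32.5 CPM. The log2 fold change was 0.84 ± 0.151 (edgeR adjusted p = 0.0595). B2m, the light chain of MHC class I, was at 826 and 1030 CPM against 555 to 696 CPM, and H2-K1, a classical heavy chain, at 1600 and 1880 CPM against 958 to 1310 CPM.

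Of the 11 genes of MHC class II, all were higher, with a median of 0.89, and 10 had an unadjusted p under 0.05 (6.00% of all genes). DESeq2 called 2 of them (1.33%). Ciita, the transactivator of the class, was at 65 and 57 CPM in dual ICI. It was at 20, 23, 34.6 and 25.7 CPM under anti-PD1 and at 21.6, 36.2, 42.7 and 30.1 CPM under anti-CTLA4 (1.06 ± 0.239, edgeR adjusted p = 0.0977). H2-Eb2, a beta chain with close paralogs, was the highest at 5.61 and 4.16 CPM against 0.548 to 2.24 CPM (1.81 ± 0.407). Cd74, the invariant chain, was at 2460 and 1980 CPM against 908 to 1770 CPM (0.83 ± 0.247). H2-Ob, the beta chain of the class II modulator H2-O, was the lowest at 0.6 ± 0.319, with 3.02 and 2.89 CPM against 0.986 to 2.81 CPM.

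**Figure D3:**
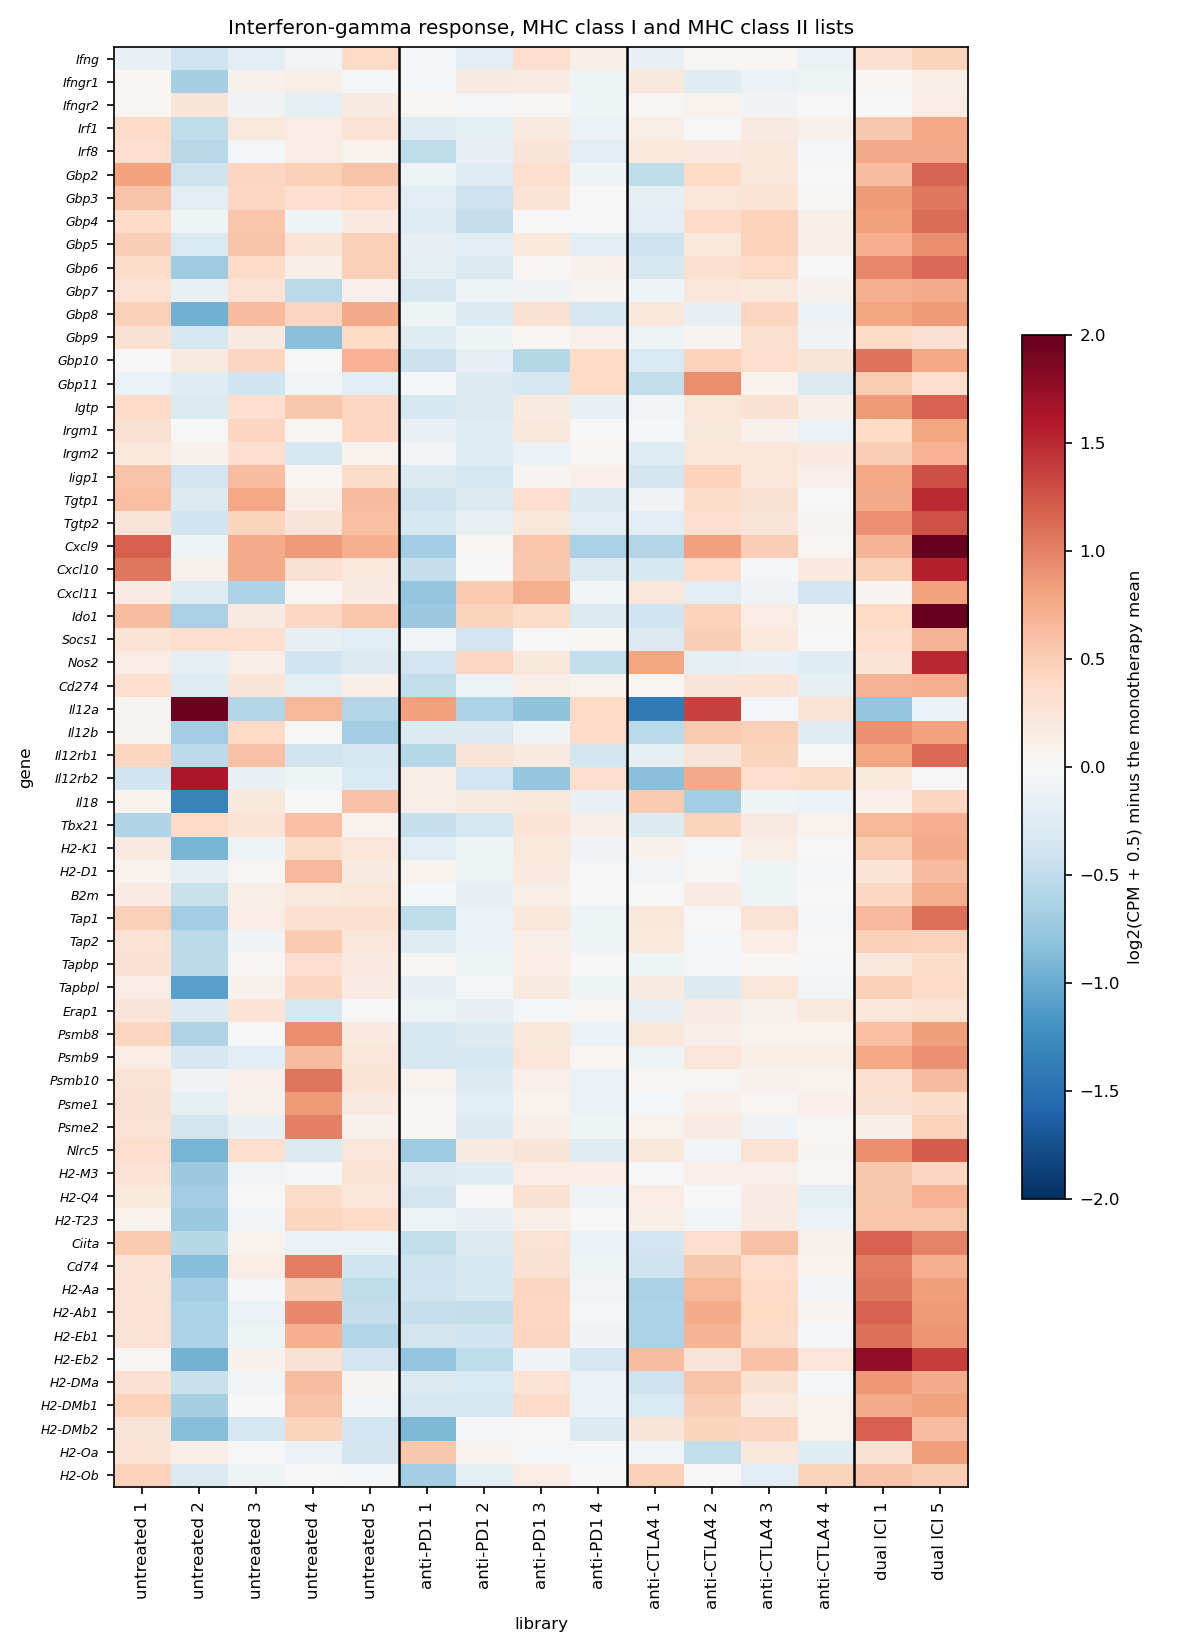
Interferon gamma, MHC class I and MHC class II genes (62 rows, 1 tested gene of these lists not shown) in the 15 week 5 libraries of untreated, anti-PD1 1 to 4, anti-CTLA4 and uncured dual ICI mice, coloured by log2(CPM + 0.5) minus the mean of the 8 monotherapy libraries, with colours ending at -2 and 2. The columns of dual ICI 1 and 5 are above the monotherapy mean for nearly all rows, Cxcl9 and Ido1 stand out in dual ICI 5, and Il12a is among the few rows below it.

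The promoters of the interferon-induced genes named above are shown because short motifs for interferon-activated factors stand in them. Capitals mark the letters searched. The ISRE, bound by IRF proteins, was searched as GAAA, any 2 bases and GAAA (or TTTC, any 2 bases and TTTC, its other strand). The GAS, an element through which interferon gamma acts, was searched as TTC, any 3 bases and GAA, which reads the same on both strands. The search covered the 250 bases before the start of the gene. Each window holds the motif with 20 bases on either side, read 5′ to 3′ on the strand of the gene from RefSeq on GRCm38.p6.
Tgtp2 (chr11:49064253-49064313, minus strand): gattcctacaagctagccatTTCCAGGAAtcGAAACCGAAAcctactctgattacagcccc
Igtp (chr11:58199491-58199551, plus strand): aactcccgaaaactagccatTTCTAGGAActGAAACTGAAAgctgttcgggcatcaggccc
Irf1 (chr11:53769904-53769952, plus strand): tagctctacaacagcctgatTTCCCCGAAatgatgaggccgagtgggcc
Isg15 (chr4:156200855-156200916, minus strand): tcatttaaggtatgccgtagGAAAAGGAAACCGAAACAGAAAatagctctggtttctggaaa
B2m (chr2:122147528-122147577, plus strand): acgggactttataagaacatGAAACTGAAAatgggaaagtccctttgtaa
Cxcl10 (chr5:92349073-92349122, minus strand): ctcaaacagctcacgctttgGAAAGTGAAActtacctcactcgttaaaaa
In Tgtp2 and Igtp a GAS match and an ISRE match stood next to each other, and in Isg15 3 overlapping ISRE matches followed each other.

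Among all 27025 promoters of the reference, 3.46% held an ISRE match and 8.13% a GAS match in the 250 bases. Of the interferon gamma list 23 genes had a promoter entry, and 11 of these held an ISRE match (47.8%) and 10 a GAS match (43.5%). Of the type I interferon list 17 had an entry, 8 with ISRE (47.1%) and 2 with GAS (11.8%). Of the MHC class I list 2 of 14 held each motif (14.3%), and of the MHC class II list 0 of 8 held ISRE and 1 held GAS (12.5%). The skeletal muscle list held neither in 24 promoters, and the T cell receptor list held ISRE in 0 of 10 and GAS in 1 of 10 (10%). Psmb9, Tap1, Cxcl9, Cd274, H2-K1, H2-Eb2, Nos1 and Cxcr6 held neither motif in this window, and Gbp6, Usp18 and Mx1 had no entry. A match is a run of letters and not a measured binding site.

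Genes of the list for IL6, JAK and STAT3 signalling lay on both sides of 0. The list also holds Il2rb, Il2rg, Il4ra, Stat5a, Stat5b and Jak3. Of 30 genes 28 were tested, 12 were higher, and the median log2 fold change was -0.05. Stat3 was at 247 and 266 CPM in dual ICI against 249 to 309 CPM under monotherapy (-0.08 ± 0.103). Socs3, the feedback inhibitor that STAT3 induces, was at 110 and 139 CPM against 101 to 169 CPM, and Il6 at 1.01 and 1.06 CPM against 0.77 to 1.64 CPM. The kinase genes Jak1 and Jak2 were at -0.05 ± 0.121 and -0.06 ± 0.103. Il2rb, the receptor chain of IL-2 and IL-15 on T and NK cells, was the highest of the list, at 14.3 and 17.5 CPM against 4.35 to 11.2 CPM (0.97 ± 0.266), and Il6ra, the IL-6 receptor, the lowest at -0.65 ± 0.496. At an unadjusted p under 0.05, 6 of the 28 were higher (6.00% of all genes) and 0 lower (6.89%).

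Myeloid genes lay closer to the median of all genes than T cell genes did. The 15 macrophage genes had a median of 0.29 with 2 higher at an unadjusted p under 0.05 (6.00% of all genes). Adgre1, which encodes the macrophage marker F4/80, was at 87.3 and 91.5 CPM against 33.6 to 95.5 CPM, and Mrc1, the mannose receptor, at 180 and 209 CPM against 99.1 to 269 CPM. The 13 neutrophil genes tested of 15 had a median of 0.18, above the upper quartile of all genes (0.17). Over the alternative fits that median ran from -0.198 to 1.37. At an unadjusted p under 0.05 stood 0 of the neutrophil genes, and 10 were higher. Cxcr2, their chemokine receptor, was at 6.15 and 8.63 CPM against 3.62 to 10.5 CPM, while Csf3r, the G-CSF receptor, was at 44.3 and 59.9 CPM against 17.9 to 44.5 CPM. Dendritic cell genes had a median of 0.45 over 12 genes, led in p by Clec9a, a receptor of cross-presenting dendritic cells, at 5.36 and 4.29 CPM against 2.41 to 3.21 CPM (0.83 ± 0.162). The 15 TGF-beta and activin genes had a median of 0.07 with 0 at an unadjusted p under 0.05, and Tgfb1 was at 73.1 and 100 CPM against 61.8 to 88.1 CPM. Of the 24 TNF, IL1 and NF-kB genes 20 were higher with a median of 0.23, and Il1b was at 14.5 and 18.5 CPM against 4.98 to 14.3 CPM.

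On the lower side stood genes of the body wall. Of 28 skeletal muscle genes, all tested, 27 were lower in dual ICI, with a median log2 fold change of -0.76. At an unadjusted p under 0.05 there were 10 (6.89% of all genes), and DESeq2 called 4 (1.71%). Actn2, the Z-disc actinin, had the smallest p of the list, at 199 and 152 CPM against 343 to 801 CPM (-1.53 ± 0.358), and Des, the muscle intermediate filament, was at 1780 and 2020 CPM against 2580 to 5050 CPM. Myh8, the perinatal myosin, was the member that was higher, at 53.7 and 45.3 CPM against 11 to 62.4 CPM. Outside the list, 5 genes followed Nos1 by p among the lower genes with a fold of at least 2 and no overlap. Myot, a protein of the Z-disc, was at 219 and 217 CPM against 459, 536, 477 and 462 CPM under anti-PD1 and 450, 587, 540 and 405 CPM under anti-CTLA4 (-1.17 ± 0.147, edgeR adjusted p = 0.0525, DESeq2 2.54e-12). Both dual ICI libraries lay below all monotherapy and all untreated libraries (355 to 1330 CPM). Gyg, which primes glycogen synthesis, was at 115 and 111 CPM against 175 to 279 CPM (-1.04 ± 0.151). Usp13, a deubiquitinase, Asb11, an adaptor of ubiquitin ligases, and Lrrc2, a leucine-rich repeat protein of muscle, were at -1.16 ± 0.172, -1.13 ± 0.17 and -1.14 ± 0.18, each with arms that did not overlap.

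Of the 19 genes of muscle atrophy and denervation, 7 were higher and 12 lower, with a median of -0.24. On the lower side 4 had an unadjusted p under 0.05 (6.89% of all genes). Fbxo32, a ubiquitin ligase of muscle atrophy, was at 136 and 188 CPM in dual ICI, against 442, 1380, 1100 and 347 CPM under anti-PD1 and 790, 430, 620 and 263 CPM under anti-CTLA4 (-2.05 ± 0.62, edgeR adjusted p = 0.215, DESeq2 0.0054). Trim63, the other atrophy ligase, was at 53.8 and 80.1 CPM against 156 to 1330 CPM (-2.89 ± 1.02). Ankrd2, a stretch-responsive ankyrin repeat protein of the skeletal muscle list, was at 16.2 and 14.1 CPM against 35.8 to 362 CPM (-2.76 ± 0.914, DESeq2 adjusted p = 0.0361). None of these overlapped between the arms, but the monotherapy libraries themselves spanned wide ranges.

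The muscle list as a whole took a large and variable part of the reads. It held 8.59% and 6.25% of the counts in dual ICI, 13%, 6.81%, 7.33% and 11.3% under anti-PD1, and 4.91%, 17.2%, 11.8% and 11.4% under anti-CTLA4. Untreated mice ranged from 7.03% to 23.1%. The mean was 7.42% (n = 2) against 10.5% (n = 8), a difference of -3.05 percentage points that the exact two-sided permutation test did not separate (p = 0.356, smallest possible 0.0444). Anti-CTLA4 replicate 1, the library with the lowest muscle share of the 10, held 33.6 CPM of Nos1 and 450 CPM of Myot. The same library stood apart from its group with high Ankrd2 (362 CPM) and Trim63 (983 CPM). With the muscle score of each library as a covariate, edgeR called 350 genes, 186 higher and 164 lower, of which 173 were among those of DESeq2. Nos1 was among them (-1.25, adjusted p = 0.0122), with Cxcr6 (1.44, 0.0197), Cd3g (1.44, 0.0217), Psmb9 (0.93, 0.0219), Ciita (1.21, 0.0409) and Fbxo32 (-2.61, 0.0217). Over the 23 alternative edgeR fits, Nos1 passed in 13, Cxcr6 in 6, Cd3g and Psmb9 in 2 each, and Ciita and Fbxo32 in 1 each. The score is the mean log2 CPM of the muscle list. The part of muscle content in the pooled result, Nos1 and Myot included, was not tested.

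**Figure D4:**
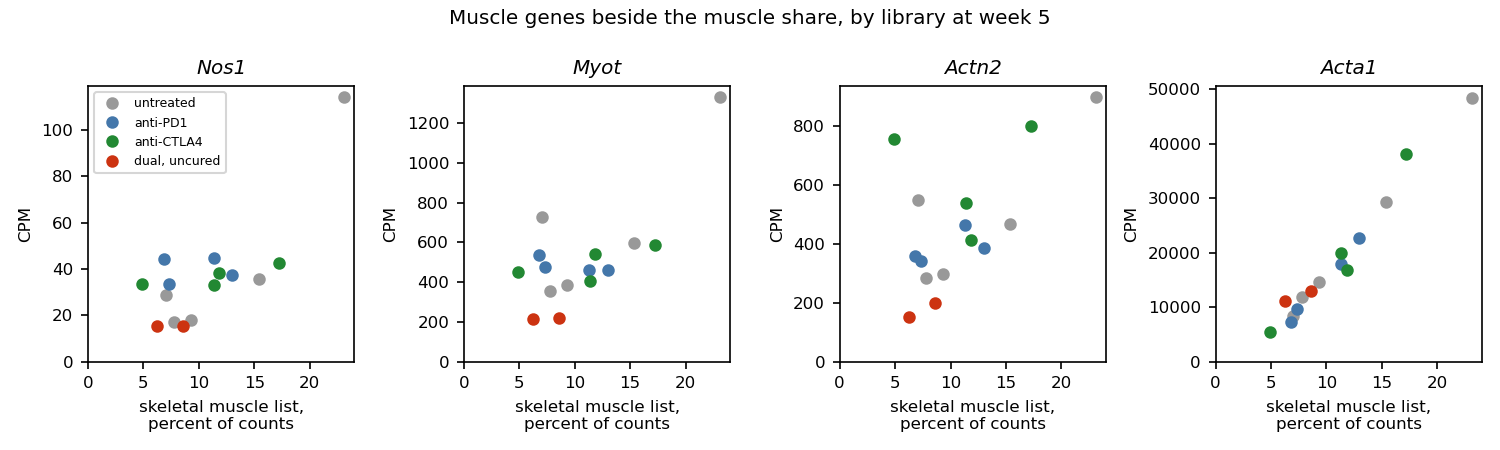
Nos1, Myot, Actn2 and Acta1 in CPM against the share of counts in the skeletal muscle list, 1 dot per week 5 library of untreated, anti-PD1, anti-CTLA4 and uncured dual ICI mice. Acta1, the skeletal actin, lies along a line with the muscle share, which contains it. The dual ICI libraries lie below all 8 monotherapy libraries for Nos1, Myot and Actn2. The part of muscle content in these levels was not tested.

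Mesothelium and fat genes were lower too. Of 12 mesothelium genes 11 were tested and 10 were lower, with a median of -0.86 and 6 at an unadjusted p under 0.05 (6.89% of all genes). Prg4, the lubricin of serosal surfaces, had the smallest p, at 22.5 and 36.6 CPM against 34.9 to 90.3 CPM (-1.06 ± 0.301). Upk3b, a marker of mesothelial cells, was the lowest at 29.9 and 17.9 CPM against 28.2 to 111 CPM (-1.22 ± 0.51). The higher member was Krt19, which gastric epithelium shares, at 997 and 1350 CPM against 572 to 1220 CPM. Of the 12 adipocyte genes 11 were lower with a median of -0.91, and 2 had an unadjusted p under 0.05 (6.89% of all genes). With the muscle score as a covariate that median was 0.17. Plin4, a coat protein of lipid droplets, was at 114 and 146 CPM against 187 to 420 CPM (-1.14 ± 0.263). The adipocyte list took 0.31% and 0.261% of counts in dual ICI, within the monotherapy range of 0.156% to 0.901%. Car3 weighed most in that share, with a highest count of 200535 against 28851 for Cfd, the next member. Whether the share tracks fat content was not tested. Lyve1, the hyaluronan receptor of lymphatic vessels and some macrophages, was at 32.2 and 38.3 CPM against 45.2 to 69.9 CPM (-0.73 ± 0.151), with a median of -0.14 over 16 endothelial genes. The 16 fibroblast genes had a median of 0.03 with 0 at an unadjusted p under 0.05. Genes of oxidative phosphorylation were lower for 30 of 31 with a median of -0.41, which was 0.04 with the muscle score as a covariate, and 0 of them had an unadjusted p under 0.05.

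**Figure D5:**
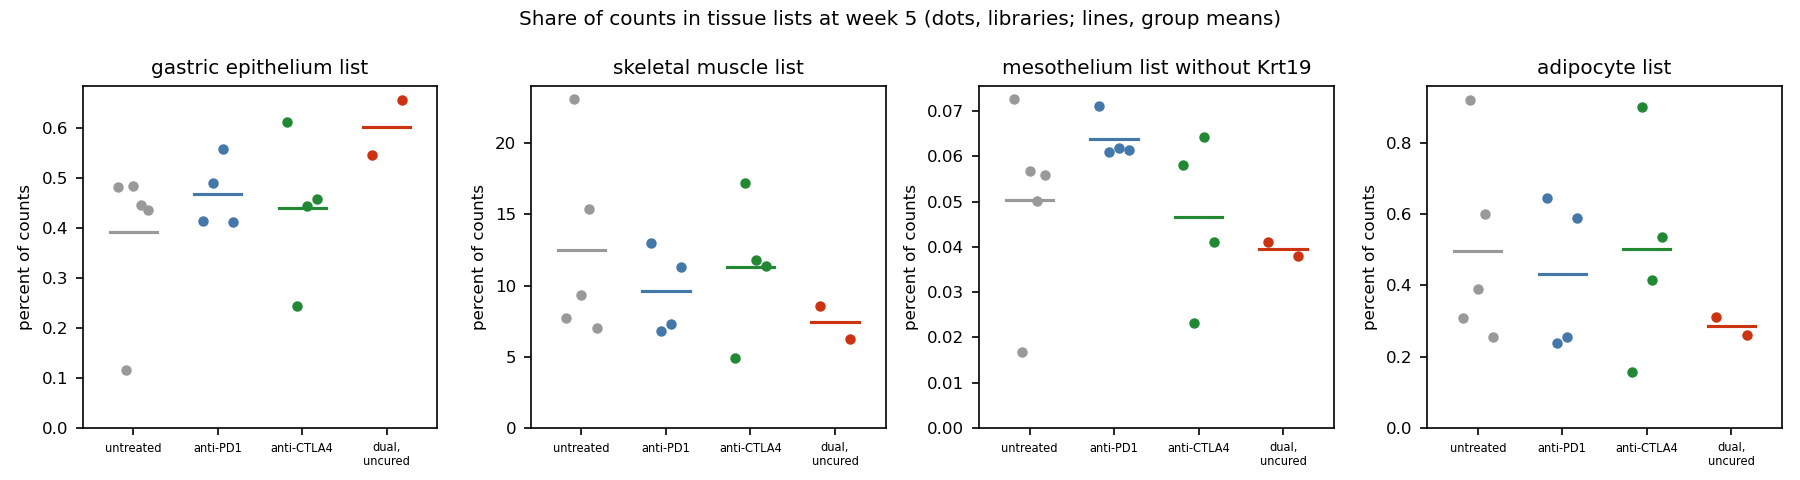
Share of counts in the gastric epithelium, skeletal muscle, mesothelium (without Krt19) and adipocyte lists in percent, 1 dot per week 5 library and a line at each group mean. The dual ICI libraries hold 0.545% and 0.656% in epithelium and 8.59% and 6.25% in muscle, and overlap the monotherapy libraries in muscle, mesothelium and adipocyte shares. The adipocyte share is weighted towards Car3, the member with the highest counts.

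The epithelium of the tumor is described without a test. Its list took 0.545% and 0.656% of counts in dual ICI and 0.244% to 0.612% under monotherapy, so that the arms overlapped, and the 26 genes measured had a median log2 fold change of 0.24 with 20 higher. Muc1, a membrane mucin, was at 154 and 102 CPM against 55 to 105 CPM, and Muc6, a secreted gland mucin, at 1.19 and 0.652 CPM against 1.2 to 4.64 CPM. With the epithelium score of each library as a covariate edgeR called 3 genes, all lower, and the part of epithelium content in the other values was not tested. B3galt5, a galactosyltransferase of glycan chains that is not in the list, was among the 6 higher genes with the smallest p and a fold of at least 2, at 10.5 and 18.6 CPM against 3.03 to 6.05 CPM. Untreated mice overlapped it, at 1.24 to 14.9 CPM. The 26 mitosis and DNA replication genes had a median of 0.27 with 25 higher and 1 at an unadjusted p under 0.05, and that median was -0.02 without dual ICI replicate 5.

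Each monotherapy was also set against dual ICI on its own, in a fit of 3 groups. These comparisons share the 2 dual ICI libraries. Against anti-PD1, edgeR called 0 genes (0%), with 1966 at an unadjusted p under 0.05 (965 higher, 1001 lower) and a smallest adjusted p of 0.0622. A fit of those 6 libraries alone called 21. Against anti-CTLA4 it also called 0 (0%), with 1444 at an unadjusted p under 0.05 (623 higher, 821 lower) and a smallest adjusted p of 0.078. Between the monotherapies, edgeR called 0 (0%) of 16224 genes. At an unadjusted p under 0.05 there were 492, fewer than in either contrast with dual ICI, and the smallest adjusted p was 0.639.

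Nos1 was at -1.37 ± 0.155 on the log2 scale against anti-PD1 and at -1.26 ± 0.154 against anti-CTLA4. The T cell receptor list had medians of 1.08 and 0.78, the interferon gamma list 0.93 and 0.77, MHC class II 1.01 and 0.79, and MHC class I 0.55 and 0.5. Cd4 was at 1.61 ± 0.289 and 1.11 ± 0.289, and Cd8a at 1.19 ± 0.36 and 1.43 ± 0.36. H2-Eb2 was at 2.5 ± 0.3 against anti-PD1 (0.548 to 1.21 CPM) and at 1.34 ± 0.293 against anti-CTLA4 (1.61 to 2.24 CPM), so that its level was in the order dual ICI, anti-CTLA4, anti-PD1 with no overlap between groups. Anti-CTLA4 minus anti-PD1 gave 1.16 for H2-Eb2, at an unadjusted p of 0.00144 in edgeR's quasi-likelihood test. That contrast had no call and a smallest adjusted p of 0.639 over all genes, so the order of the monotherapies is given as levels only. The skeletal muscle list had medians of -0.64 and -0.88, and the mesothelium list -1.12 and -0.62.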

How the data were processed

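Bulk RNA-seq libraries of peritoneal tissue were analysed, 10 for the comparison and 9 further week 5 libraries as background. The authors deposited unnormalized read counts by gene symbol, made from alignments to mm10. The submitters' processing notes name STAR 2.7.0f and featureCounts 1.6.4, and the methods name STAR 2.5.2b and HTSeq 0.6.1 on 150 bp paired-end reads. The labels and the methods also name different RNA extraction reagents. The annotation and strand setting are not given in the sources used here, so overlapping, antisense and paralogous genes are uncertain. Totals in the 10 libraries were 25989217 to 30012698 counts. Of 24421 genes, 20266 had at least 1 count and 16224 passed filterByExpr by arm.

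Counts were tested with edgeR 4.0.16 in R 4.3.3 (TMM, glmQLFit and glmQLFTest, two-sided, Benjamini-Hochberg), with no covariate, and with DESeq2 1.42.0 as an alternative. Scripts were tested on simulated data. CPM use TMM-scaled totals. Positions are from GENCODE on GRCm38 by symbol, matching 23376 of the symbols (95.7%). Promoters are from RefSeq. Figures used matplotlib 3.10.9.

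The members and gene lists were chosen with earlier results of these data known. Genes were named by a rule: up to 6 per direction with the smallest p, arms that do not overlap and a fold of at least 2, a fixed set of T cell, myeloid, cytokine, MHC and muscle genes, and the member with the smallest p and the extremes of each list. Columns mapped to no sample numbered 0. Of the interferon lists, 1 gene counts in its list's totals but is neither named in the text nor drawn in the heatmap.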

Additional observations from a re-analysis of the deposited data

Results flagged for a closer look

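Single libraries stood far from the rest of their monotherapy group of 4 in 12 of 174 sets of values examined, and chance alone gives about 1 in 20. Anti-CTLA4 replicate 1 was high for the muscle genes Ankrd2 (362 CPM, others 45.1 to 94.7) and Trim63 (983 CPM, others 159 to 245) and for Usp18 (8.3 CPM, others 5.71 to 6.13), and low for Il1b (5.92 CPM, others 13.1 to 14.3). It was also the library with the lowest muscle share. Anti-CTLA4 replicate 2, the library with the highest muscle share and the lowest epithelium share, was high for Adgre1 (95.5 CPM, others 49.3 to 55.6) and Klre1 (0.719 CPM, others 0.24 to 0.301). Anti-CTLA4 replicate 3 was low for Eomes (2.25 CPM, others 2.66 to 2.71), and replicate 4 was low for Tigit (1.2 CPM, others 1.93 to 2.04). Anti-PD1 replicate 3 was high for Cxcr6 (3.21 CPM, others 2.33 to 2.48) and Mx1 (7.57 CPM, others 4.11 to 4.64). Anti-PD1 replicate 2 was high for Il6ra (94.7 CPM, others 23.9 to 36), and anti-PD1 replicate 1 for the mesothelium share without Krt19 (0.0712% of counts, others 0.061% to 0.0618%).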

How the results depend on the processing

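With 2 mice in 1 arm, the number of calls depended on the fit more than the direction of the lists did. For pooled monotherapy edgeR called 1 gene (0 higher, 1 lower), and still 1 with upper-quartile normalization, median-of-ratios size factors or no filter. The count was 474 (207 higher, 267 lower) in DESeq2, 3 (1 and 2) with at least 10 counts in every library, 2 (1 and 1) with the monotherapies as separate groups, 21 (5 and 16) against anti-PD1 alone, 2 (0 and 2) without the muscle list, 350 (186 and 164) with the muscle score and 3 (0 and 3) with the epithelium score as a covariate. It was 0 against anti-CTLA4 alone, with anti-PD1 replicate 5 kept in, and with all 19 week 5 libraries in the fit. Without 1 library in turn, edgeR called 0 to 72 genes (0 to 35 higher, 0 to 37 lower) and DESeq2 37 to 751 (10 to 340 higher, 27 to 444 lower). The DESeq2 fits without 1 library were chosen after seeing the data. The count against anti-PD1 in the 3-group fit was 0, and 21 in a 2-group fit. The muscle share difference kept its sign in all 11 alternatives, and its exact test cannot reach 0.05 once a library is left out.

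Whether the replicate numbers pair the mice could not be decided. Of 7 same-numbered pairs, 2 had a correlation of deviations from the group mean over 0.1, from -0.801 to 0.231. The deviations of the 2 dual ICI libraries are mirror images of each other, so their pairs add little. The fit with the replicate number as a block, with anti-PD1 replicate 5 kept in, called 0 genes, as did that set of libraries without the block. In the block fit the signs of Socs3 (0.89), Il6 (0.75), Stat3 (0.15) and Cd274 (-0.14) were turned.

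Of 84 genes followed through the fits, 44 crossed the threshold in DESeq2, 27 with the muscle covariate and 19 without anti-CTLA4 replicate 2. Signs turned for Socs3 with anti-PD1 replicate 5 kept in (0.0456), against anti-PD1 alone (0.0928) and with the muscle covariate (0.094), and for Mrc1 against anti-CTLA4 alone (-0.0137) and without anti-PD1 replicate 1 (-0.00743). They turned with the muscle covariate for Jak1 (0.121), Il12a (0.878), Ifi27l2a (0.523), Krt19 (-0.0596), Lep (0.94) and Cxcr2 (-0.0948), and with the epithelium covariate for Jak1 (0.0264). Between the fits without dual ICI replicate 5 and without dual ICI replicate 1, values ran from -0.268 to 0.0737 for Socs3, from -0.0266 to 0.187 for Mrc1, from -0.0883 to 0.399 for Cxcr2, from -0.146 to 0.0217 for Jak2, from 0.322 to -0.0295 for Cd247 and from -1.44 to 6.15 for Alb. The causes were not tested. With the muscle covariate the medians of the adipocyte (0.17) and oxidative phosphorylation (0.04) lists were no longer negative. That of the muscle list (0.02) follows from the covariate, which is the mean log2 CPM of the same genes. Genes under about 1 CPM, such as Ifng and Gzmk, have few counts, and differences in them are hard to detect at this depth.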

Other observations

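B cell and plasma cell genes were higher for 9 of 10 tested of 14, with a median log2 fold change of 0.64 and 2 at an unadjusted p under 0.05 (6.00% of all genes). Jchain, which links secreted IgA and IgM, was at 221 and 186 CPM in uncured dual ICI and at 34 to 197 CPM under monotherapy. The complement list (20 genes) and the integrated stress response list (17 of 18 tested) had medians of -0.00254 and -0.000501, and 17 of 18 matrix metalloprotease genes and their inhibitors had 0.05. Glycolysis genes had a median of -0.33 over 20 of 21 tested, with 2 lower at an unadjusted p under 0.05 (6.89% of all genes). Mast cell, monocyte and immune suppressive metabolism genes had medians of 0.05, 0.15 and 0.11. Squamous keratin genes were lower for 11 of 16 with a median of -0.26, and intestinal differentiation genes higher for 13 of 14 with 0.3.

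Alb, the liver's serum albumin, was at 7.8 CPM in dual ICI replicate 5 and at 0.036 CPM in replicate 1, against 0 to 0.423 CPM under monotherapy. The liver list as a whole took 0.0328% of counts in replicate 5 and 0.0317% in replicate 1. That share mostly follows Trf and Cyp2e1, with highest counts of 8951 and 3687 against 379 for Ttr, the next member. The score of the list (the mean log2 CPM of its genes) was 1.74 in replicate 5, 0.22 in replicate 1 and -0.04 to 0.47 under monotherapy.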
